A study of Mus musculus with 10 samples.

Results

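Lymph node stromal cells draining a 4T1 mammary tumour were set against stromal cells of nodes exposed to bacterial lipopolysaccharide (LPS), a ligand of the receptor Tlr4 given without live bacteria or tumour cells. The cells came from 1 hashtagged droplet library, in which an oligonucleotide-tagged antibody marks the pool that each cell came from. A cell counted as 4T1 or LPS where that hashtag had 10 or more counts and at least 3 times the next hashtag. Cells needed 500 UMIs (unique molecular identifiers, 1 per captured mRNA) and at most 10% mitochondrial UMIs. Fibroblasts were cells with 5 or more UMIs of Col1a1, Col1a2, Col3a1 and Dcn together and none of Ptprc or Pecam1. Endothelial cells had 2 or more UMIs of Pecam1 and Cdh5 together, none of Ptprc and fewer than 3 of Col1a1. The gates held 745 cells: 114 fibroblasts and 234 endothelial cells of 4T1 nodes, and 227 fibroblasts and 170 endothelial cells of LPS nodes. They were drawn from 2540 filtered cells of the stromal library, of which 2353 had a hashtag call, and from 56333 barcodes in the 5 gene libraries of the series.

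Fibroblastic reticular cells build the scaffold of the lymph node and produce the chemokines Ccl19, Ccl21a and Cxcl13, which place T and B cells. Endothelial cells line its blood vessels, the high endothelial venules through which lymphocytes enter, and the lymphatic sinuses through which lymph from the drained tissue flows. Tlr4, together with Cd14 and Ly96, signals through Myd88 to NF-kB and through Irf3 to type I interferon, whose target genes include antiviral factors and the machinery of antigen presentation.

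All mice were wild-type, female, 8-week-old BALB/C animals, and the nodes were axillary. 4T1 mice carried an orthotopic tumour of the metastatic 4T1 breast cancer line, injected in the 4th mammary pad, and were killed after 18 days at a tumour size of 500 mm3. LPS mice received a subcutaneous injection and were killed after 72 hours, at a dose and site that the labels do not give. The same library held nodes of mice with tumours of the non-metastatic 67NR line, grown in the same way, and of untreated (naive) mice, and their values are given beside the comparison. The LPS hashtag is named LPS.PL, with the ending not explained, and the treatment label of the library does not list LPS, which is named in its description. At least 3 mice per condition were pooled under 1 hashtag with no map from cells to mice, so each condition is 1 pool and no difference between conditions has a replicate check. Stimulus and duration cannot be told apart.

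The summed fibroblasts held 1843781 UMIs in 4T1 and 3824094 in LPS nodes, and the summed endothelial cells 2848535 in 4T1 and 1800304 in LPS nodes. Mitochondrial UMIs were a median 2.17% in 4T1 and 1.57% in LPS fibroblasts, and 2.90% in 4T1 and 2.01% in LPS endothelial cells. Median depth was alike, at 15673 UMIs per fibroblast in 4T1 and 16824 in LPS nodes, and 9711 UMIs per endothelial cell in 4T1 and 8612 in LPS nodes. Fibroblast markers summed to 17038 and 18418 CPM (UMIs of the genes per 1000000 UMIs of the summed cells) in the fibroblast gate of 4T1 and LPS nodes, against 57.9 and 226 CPM in the endothelial gate of the same pools. Endothelial markers summed to 6191 and 6524 CPM in the endothelial gate, against 9.76 and 9.68 CPM in the fibroblast gate. The leukocyte list stood at 1.63 and 3.66 CPM in fibroblasts and at 12.6 and 6.11 CPM in endothelial cells, with Ptprc at 0 by the gate. Differences below are ratios of CPM, 4T1 over LPS, on the log2 scale, with exact 95% intervals that cover counting error only and not the spread between mice.

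The gates took different shares of the pools. Endothelial cells were 55.5% of 4T1 cells (50.6 to 60.3%, exact binomial interval) and 27.9% of LPS cells (24.3 to 31.6%), while fibroblasts were 27.0% of 4T1 cells (22.8 to 31.5%) and 37.2% of LPS cells (33.4 to 41.2%). Dissociation and sorting can set these shares, and their part was not tested. Among fibroblasts, 31 of 114 in 4T1 nodes (27.2%) and 44 of 227 in LPS nodes (19.4%) had 5 or more UMIs of Ccl19 and Ccl21a, a range typical of T-zone reticular cells. A further 51 of 114 (44.7%) in 4T1 and 127 of 227 (55.9%) in LPS nodes had 2 or more UMIs of Pi16 and Dpp4, markers of adventitial fibroblasts. Among endothelial cells, 53 of 234 (22.6%) in 4T1 and 27 of 170 (15.9%) in LPS nodes fell in a lymphatic range (2 or more UMIs of Prox1, Mmrn1, Reln and Lyve1), and 27 of 234 (11.5%) and 11 of 170 (6.47%) in a venule range (2 or more UMIs of Chst4 and Fut7). These are ranges of a count, not cell types, and their intervals overlapped between the pools for each of the named ranges.

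In fibroblasts, 108 of 6899 genes measured (1.57%) were past 2-fold higher in 4T1 and 123 (1.78%) past 2-fold lower in 4T1 than in LPS nodes. A gene was measured where the higher pool held 50 or more of its UMIs in 10% or more of its cells, and the median log2 ratio of all genes measured was -0.01. The LPS sum was the deeper one, and with an equal CPM minimum in both pools, chosen after the data were seen, 108 genes were higher and 56 lower in 4T1 of 5691 measured. The class I chains that present antigen to T cells, the acute-phase protein Saa3, the complement gene Cfb and the interferon regulator Irf7 were lower in 4T1 fibroblasts. The T-zone chemokine Ccl21a, the cytokine Il6, the secreted pattern recognition protein Ptx3 and the protease inhibitor Serpina3n were higher in 4T1 fibroblasts.

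H2-D1, a classical class I heavy chain that presents peptides to CD8 T cells, had 2367 CPM in 4T1 and 7404 CPM in LPS fibroblasts, beside 2241 CPM in 67NR and 3068 CPM in naive fibroblasts. The LPS pool stood above all 3 others, and the 4T1 to LPS ratio was -1.65 (-1.69 to -1.60). B2m, the shared light chain of class I molecules, had 2199 CPM in 4T1, 5166 CPM in LPS, 1948 CPM in 67NR and 2464 CPM in naive fibroblasts, a 4T1 to LPS ratio of -1.23 (-1.28 to -1.18). H2-K1, the other classical heavy chain, had 1109 CPM in 4T1, 2777 CPM in LPS, 986 CPM in 67NR and 1154 CPM in naive fibroblasts, a ratio of -1.32 (-1.39 to -1.26). The shift ran through the cells rather than resting on a few: the median fibroblast had 2035 CPM of H2-D1 in 4T1 and 6510 CPM in LPS nodes, and 1901 and 4943 CPM of B2m. Of 14 measured class I presentation genes, 4 were past 2-fold lower in 4T1 (H2-D1, H2-K1, B2m and H2-Q7, the last with 89.0 CPM in 4T1 and 178 CPM in LPS fibroblasts) and none higher, against a background of 1.95% lower among the 6929 genes with 50 UMIs. The median of the list was -0.64, with 12 of 14 below 0, and Nlrc5, the transactivator of class I genes, stood at 0.61. By range the list median was -0.22 in the Ccl19 and Ccl21a range, -0.86 in the Pi16 and Dpp4 range and -0.44 in the rest. The heavy chain genes are near copies of one another and BALB/C carries other alleles than the reference genome, so reads may be shared among them and the values of single members are uncertain. B2m has no such copy. In the GENCODE annotation of GRCm38, the source of the gene spans given here, H2-D1 lies at chr17:35262730-35267499 and B2m at chr2:122147686-122153083, both on the plus strand.

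In endothelial cells none of the same 14 class I genes was past 2-fold either way, and their median was -0.43. H2-D1 stood at 5795 CPM in 4T1 and 8183 CPM in LPS endothelial cells, a ratio of -0.50, beside the -1.65 of fibroblasts. B2m stood at 4472 CPM in 4T1 and 5890 CPM in LPS endothelial cells (-0.40). The difference between the gates was not tested.

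Interferon genes leaned lower in both gates of 4T1 nodes. Irf7 (chr7:141262706-141266481, minus strand), the factor that amplifies type I interferon, had 25.5 CPM in 4T1, 153 CPM in LPS, 33.4 CPM in 67NR and 37.2 CPM in naive fibroblasts. The 4T1 to LPS ratio was -2.58 (-3.04 to -2.15), and 29 of 114 fibroblasts in 4T1 and 166 of 227 in LPS nodes held a UMI. With cells thinned to 3000 UMIs, which left out 3 cells in each pool, the shares with a UMI were 10.8% in 4T1 and 32.1% in LPS fibroblasts. Endothelial cells express Irf7 too, with 57.3% of 4T1 and 74.7% of LPS cells holding a UMI. Ifit1, an antiviral RNA-binding protein, had 94.4 CPM in 4T1, 251 CPM in LPS, 44.8 CPM in 67NR and 98.0 CPM in naive fibroblasts, a ratio of -1.41 (-1.65 to -1.17). Rsad2 (viperin, an antiviral enzyme) stood at 10.9 CPM in 4T1 and 26.2 CPM in LPS fibroblasts, a ratio of -1.27 (-2.04 to -0.57). Only these 3 of 22 measured interferon genes were past 2-fold lower in 4T1 fibroblasts, against 1.95% of the 6929 genes with 50 UMIs. The list median was -0.45 with 18 of 22 below 0, and the median was 0.23 within the Ccl19 and Ccl21a range and -0.54 within the Pi16 and Dpp4 range.

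In endothelial cells, 88 of 6618 genes measured (1.33%) were past 2-fold higher in 4T1 and 62 (0.937%) past 2-fold lower in 4T1 than in LPS nodes, around a median of 0.03. All 24 measured interferon genes lay below 0, and 5 of 24 were past 2-fold lower in 4T1 (Ifit1, Rsad2, Ifit3, Rtp4 and Gbp3), against 1.27% of the 6701 genes with 50 UMIs. Ifit1 had 27.7 CPM in 4T1, 152 CPM in LPS, 59.0 CPM in 67NR and 44.9 CPM in naive endothelial cells, a 4T1 to LPS ratio of -2.45 (-2.83 to -2.08). Rsad2 had 24.9 CPM in 4T1, 128 CPM in LPS, 37.8 CPM in 67NR and 47.7 CPM in naive endothelial cells, a ratio of -2.36 (-2.76 to -1.97). For both genes the LPS pool was the highest of the 4 and the 4T1 pool the lowest. A Rsad2 UMI was found in 32 of 234 endothelial cells in 4T1 and 61 of 170 in LPS nodes, or in 6.05% and 15.9% at 3000 UMIs per cell, and 1 LPS cell held 69 of the 230 UMIs. The list median was -0.71, and it was -0.31 in the lymphatic range, -1.11 in the venule range and -0.86 in the other blood endothelial cells. Against naive cells the median of the list was 0.03 for 4T1 and 0.74 for LPS, where both ratios share the naive pool. Apol9a and Apol9b (-2.05 and -2.15), Ifit3 and Ifit3b (-1.43 and -1.75), and Ifi207, Ifi202b and Ifi204 (-1.95, -1.43 and -1.42) were among the 15 lowest endothelial ratios. They are interferon-inducible genes of multicopy families, so the split of reads among copies is uncertain.

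The promoters of Ifit1, Rsad2 and B2m hold the core of the interferon-stimulated response element, searched as GAAA and GAAA with any 2 bases between them, or TTTC and TTTC on the other strand. The promoters follow from RefSeq (GRCm38.p6), each read 5′ to 3′ on the strand of its gene across the annotated start, with the matches to that core in capitals. They are shown because these genes separate the pools in both gates (Ifit1, Rsad2) or carry the class I difference without a near copy (B2m).
Ifit1, chr19:34640639-34640938, plus strand: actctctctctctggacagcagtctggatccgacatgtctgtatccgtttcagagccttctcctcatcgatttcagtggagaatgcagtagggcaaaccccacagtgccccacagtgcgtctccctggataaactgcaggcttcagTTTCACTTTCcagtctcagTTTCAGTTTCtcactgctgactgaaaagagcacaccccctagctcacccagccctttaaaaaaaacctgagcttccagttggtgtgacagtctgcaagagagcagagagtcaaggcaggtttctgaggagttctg
Rsad2, chr12:26456403-26456702, minus strand: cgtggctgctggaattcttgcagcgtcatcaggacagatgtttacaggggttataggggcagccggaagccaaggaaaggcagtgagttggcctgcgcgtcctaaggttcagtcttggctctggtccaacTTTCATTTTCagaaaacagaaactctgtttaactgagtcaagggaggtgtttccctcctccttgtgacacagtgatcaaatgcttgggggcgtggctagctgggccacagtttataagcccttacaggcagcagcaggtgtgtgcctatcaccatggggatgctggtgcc
B2m, chr2:122147437-122147736, plus strand: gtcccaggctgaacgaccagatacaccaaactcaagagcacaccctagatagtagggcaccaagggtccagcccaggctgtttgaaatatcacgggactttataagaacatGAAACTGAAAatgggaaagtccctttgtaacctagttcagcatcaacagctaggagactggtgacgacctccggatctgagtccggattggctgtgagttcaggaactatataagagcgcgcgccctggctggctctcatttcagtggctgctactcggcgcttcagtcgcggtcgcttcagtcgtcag
Ifit1 has 2 matches, the first 104 bases before the start, and Rsad2 and B2m have 1 each, 120 and 139 bases before it. The Rsad2 promoter also holds an AP-1 match and the B2m promoter a kappa B match. Searched on both strands, the core stood in 3.99% of the 27025 promoters in the table and in 225 of 5274 (4.27%) promoters of genes measured in endothelial cells. Among endothelial genes past 2-fold lower in 4T1 it stood in 16 of 52 (30.8%), and among those higher in 4T1 in 3 of 69 (4.35%). It stood in 11 of 18 (61.1%) promoters of the endothelial interferon list, in 10 of 16 (62.5%) of the fibroblast interferon list, and in 3 of 12 (25%) of the class I list. Among fibroblast genes the core stood in 10 of 98 (10.2%) of those lower and in 5 of 82 (6.10%) of those higher in 4T1. The interferon core was not the only motif frequent among the lower endothelial genes. The AP-1 site (TGA and TCA with any base between them) stood in 12 of 52 (23.1%) of them. It stood in 2 of 69 (2.90%) of the higher endothelial genes and in 336 of 5274 (6.37%) of those measured. Members of 1 family can share promoter letters, so these promoters are not independent of one another. A match is a description of letters and not of a bound site.

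**Figure D1:**
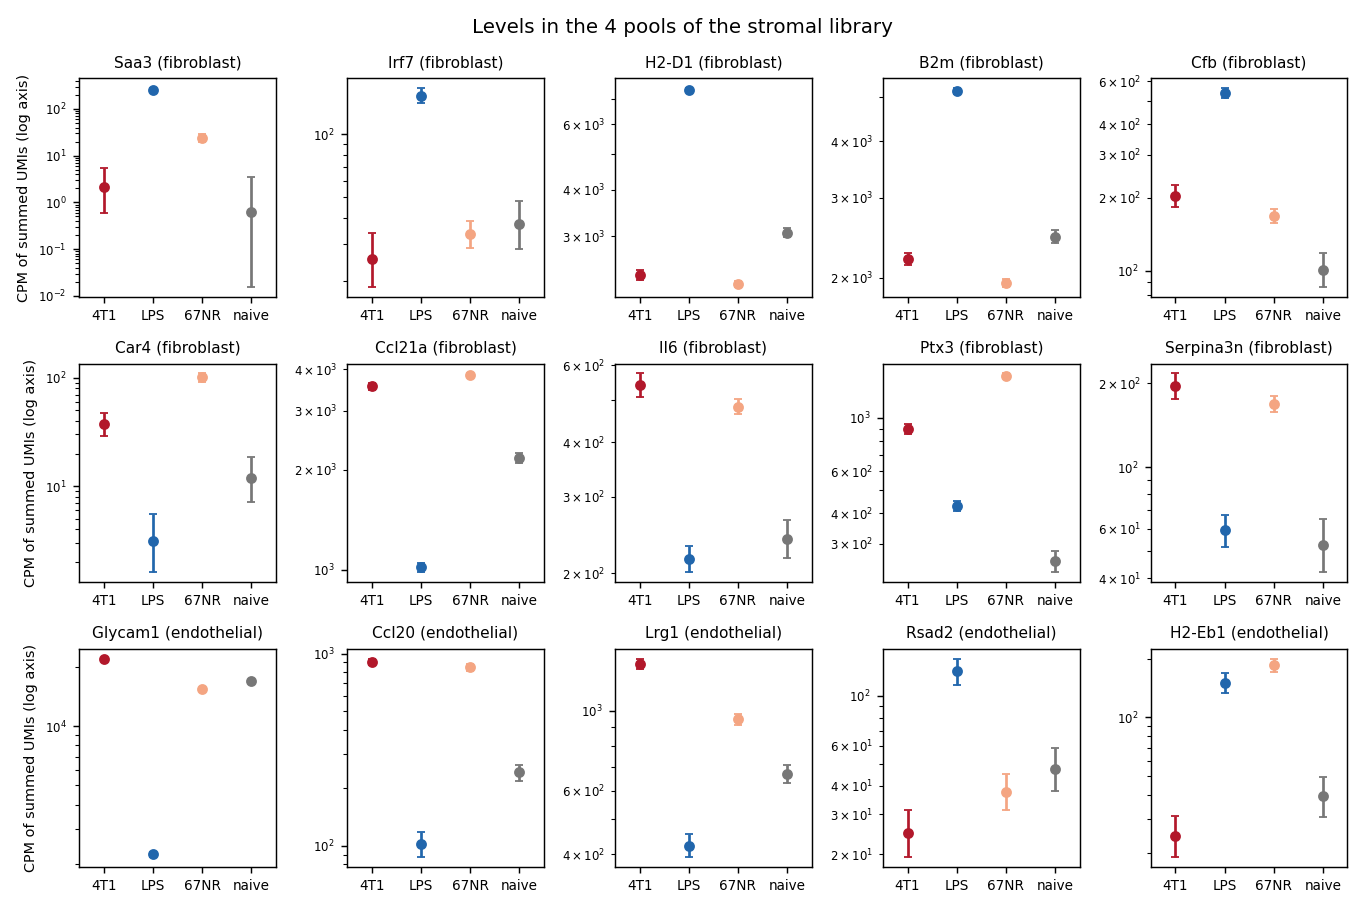
Levels of 15 genes in the summed fibroblasts or endothelial cells of the 4T1, LPS, 67NR and naive pools, as CPM on a log axis with exact Poisson 95% intervals (counting error only). Saa3, Irf7, H2-D1, B2m and Cfb were highest in LPS fibroblasts, while Ccl21a, Il6 and Ptx3 were higher in both tumour pools than in LPS fibroblasts. In endothelial cells Glycam1 was lowest in the LPS pool (2239 CPM) and Rsad2 highest there (128 CPM).

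Of the acute-phase genes, Saa3 (chr7:46711998-46715700, minus strand), a serum amyloid protein made by inflamed stroma, separated the pools most. It had 2.17 CPM in 4T1, 259 CPM in LPS, 23.9 CPM in 67NR and 0.62 CPM in naive fibroblasts, from 4 UMIs in 4T1 and 992 UMIs in LPS nodes. The ratio was -6.90 (-8.78 to -5.54). The LPS value was uneven between cells: 34 of 227 fibroblasts held a UMI, and 1 cell held 488 of the 992, so Saa3 falls outside the ranking of named genes. Saa3 UMIs were present in 3 of 114 fibroblasts in 4T1 nodes, and in 0.855% of 4T1 and 2.94% of LPS endothelial cells. Cfb, complement factor B of the alternative pathway, had 203 CPM in 4T1, 538 CPM in LPS, 168 CPM in 67NR and 101 CPM in naive fibroblasts. Its ratio of -1.40 (-1.57 to -1.24) was alike in the 3 fibroblast ranges, at -1.44, -1.51 and -1.17. Cfb was the 1 of 9 measured complement genes past 2-fold (background 1.95% lower), and C3, the central component, stood at 0.02.

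Il6 and Ptx3 went the other way. Il6, a cytokine of the acute phase, had 540 CPM in 4T1, 216 CPM in LPS, 482 CPM in 67NR and 240 CPM in naive fibroblasts, a ratio of 1.32 (1.18 to 1.45), and lay between 1.10 and 1.76 in the 3 fibroblast ranges. An Il6 UMI was found in 52 of 114 fibroblasts in 4T1 and 105 of 227 in LPS nodes. The 5 highest cells held 49.1% of the UMIs in 4T1 and 30.1% in LPS nodes, but 5 cells are a larger share of the 4T1 pool. The highest 5% of cells held 53.7% in 4T1 and 52.0% in LPS nodes, so the concentration was alike. Outside the 5 highest cells the level was 274 CPM in 4T1 and 151 CPM in LPS fibroblasts. All 8 measured genes of the Il6 family lay above 0, with a median of 0.20, and Il6 alone was past 2-fold (background 1.73% higher). Ptx3 had 894 CPM in 4T1, 431 CPM in LPS, 1491 CPM in 67NR and 253 CPM in naive fibroblasts, a ratio of 1.05 (0.95 to 1.15). In a second library of the series, which holds no LPS pool, Ptx3 had 2713 CPM in 4T1 and 639 CPM in naive fibroblasts, a 4T1 to naive ratio of 2.09, beside 1.82 in the stromal library. Saa3 also had more UMIs in 4T1 than in naive fibroblasts there (18.8 against 0.73 CPM).

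The receptor genes were close between the pools. Tlr4 had 75.4 CPM in 4T1, 65.4 CPM in LPS, 83.3 CPM in 67NR and 61.4 CPM in naive fibroblasts, a 4T1 to LPS ratio of 0.21 (-0.10 to 0.51). Its co-receptors Cd14 and Ly96 stood at -0.12 (-0.78 to 0.51) and -0.28 (-0.93 to 0.34). None of the 8 measured genes of the receptor and its adaptors was past 2-fold in fibroblasts, and none of 9 in endothelial cells, where Tlr4 stood at 0.65 (0.18 to 1.13).

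Among chemokines, Ccl2, which draws monocytes, had 1682 CPM in 4T1, 1028 CPM in LPS, 1905 CPM in 67NR and 786 CPM in naive fibroblasts, a ratio of 0.71 (0.64 to 0.78). Ccl7, its neighbour on chromosome 11 with the same receptor, had 1188 CPM in 4T1 and 996 CPM in LPS fibroblasts (0.26, 0.18 to 0.33). Neither was past 2-fold. Ccl8, a related chemokine, was higher in 4T1, at 76.5 CPM in 4T1, 25.1 CPM in LPS, 38.4 CPM in 67NR and 21.1 CPM in naive fibroblasts (1.61, 1.22 to 2.00), but in the second library it had 27.7 CPM in 4T1 and 37.8 CPM in naive fibroblasts. Ccl5, a chemokine for T cells and monocytes, was lower in 4T1, with 2 UMIs in 4T1 and 69 UMIs in LPS fibroblasts (-4.06, -7.13 to -2.15), and endothelial cells had 1.76 CPM of Ccl5 in 4T1 and 72.8 CPM in LPS nodes. Cxcl2, a neutrophil chemokine, had 525 CPM in 4T1 and 171 CPM in LPS fibroblasts (1.62, 1.47 to 1.76). The 5 highest cells held 83.9% of its UMIs in 4T1 and 62.3% in LPS nodes. At an equal share of cells, the highest 5%, these values were 87.4% in 4T1 and 86.6% in LPS nodes. Without cells that held UMIs of immune or endothelial genes the Cxcl2 ratio was -0.09.

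The homeostatic chemokines parted. Ccl21a, the Ccr7 ligand of the T zone, had 3562 CPM in 4T1, 1018 CPM in LPS, 3834 CPM in 67NR and 2163 CPM in naive fibroblasts. The ratio was 1.81 (1.75 to 1.86), the LPS pool being the lowest of the 4. The 5 highest cells held 59.4% of its UMIs in 4T1 and 67.0% in LPS nodes, and the highest 5% of cells 67.4% in 4T1 and 95.4% in LPS nodes. A UMI was found in 25 of 114 fibroblasts in 4T1 and 48 of 227 in LPS nodes. Outside the 5 highest cells the level was 1446 CPM in 4T1 and 336 CPM in LPS fibroblasts. Ccl19, the other Ccr7 ligand, had 851 CPM in 4T1, 385 CPM in LPS, 803 CPM in 67NR and 701 CPM in naive fibroblasts (1.14, 1.04 to 1.25). A larger share of 4T1 than of LPS fibroblasts lay in the range that these 2 genes define (27.2% and 19.4%), with overlapping intervals. Within that range Ccl21a stood at 1.35 and Ccl19 at 0.73, values that the choice of cells also touches. Both have near copies in the mouse genome. Cxcl13, the B cell chemokine, was lower in 4T1, with 479 CPM in 4T1, 768 CPM in LPS, 169 CPM in 67NR and 171 CPM in naive fibroblasts (-0.68, -0.79 to -0.57). It was more concentrated in 4T1, where 5 cells held 85.8% of its UMIs, against 31.6% in LPS nodes. The highest 5% of cells held 87.2% of Cxcl13 UMIs in 4T1 and 48.6% in LPS nodes. Bst1, an ectoenzyme of stromal cells (2.00, 1.45 to 2.57), and Il33, an alarmin (0.80, 0.68 to 0.92), were above 0, and Cxcl12, a retention factor for leukocytes, differed little at 1633 CPM in 4T1 and 1514 CPM in LPS fibroblasts (0.11). In the list of homeostatic factors, 3 of 10 were past 2-fold higher in 4T1 and none lower. Of the 6929 fibroblast genes with 50 UMIs, 1.73% were higher and 1.95% lower.

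**Figure D2:**
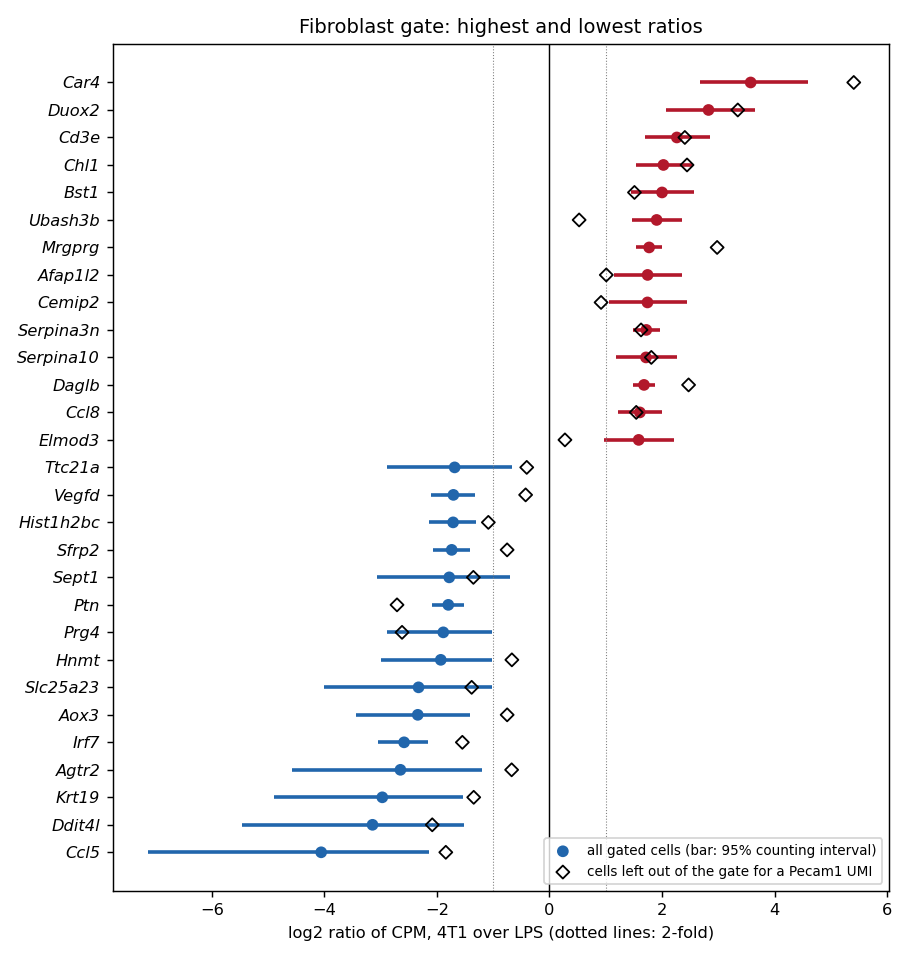
Ratios of 14 genes from the high end and 15 from the low end among fibroblast genes past 2-fold, on the log2 scale, 4T1 over LPS; filled points are the gated cells with 95% counting intervals and open diamonds are fibroblast-marker cells of the same pools left out of the gate for a Pecam1 UMI. The diamonds keep the sign for all 14 genes shown as higher in 4T1 and for all 15 lower ones.

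Among fibroblast genes found in 10% or more of the cells of the higher pool, with no 1 cell holding over 20% of the UMIs, the highest ratio belonged to Car4, a membrane-bound carbonic anhydrase. It had 37.4 CPM in 4T1, 3.14 CPM in LPS, 101 CPM in 67NR and 11.8 CPM in naive fibroblasts, a ratio of 3.58 (2.68 to 4.60). Duox2, an oxidase that makes hydrogen peroxide, had 35.3 CPM in 4T1, 4.97 CPM in LPS, 114 CPM in 67NR and 14.9 CPM in naive fibroblasts (2.83, 2.07 to 3.65). Mrgprg, an orphan receptor, had 222 CPM in 4T1, 65.1 CPM in LPS, 626 CPM in 67NR and 110 CPM in naive fibroblasts (1.77, 1.54 to 2.00). For all 3 genes the order of the pools was 67NR, 4T1, naive and LPS, and nearly all of their 4T1 UMIs lay in the Pi16 and Dpp4 range (59 of 69, 62 of 65 and 408 of 410). Daglb, a diacylglycerol lipase, had 509 of its 524 UMIs in 4T1 fibroblasts in the same range (1.68, 1.48 to 1.88). Inside the Ccl19 and Ccl21a range Mrgprg and Daglb stood at -4.11 and -2.34, from 1 and 5 UMIs in 4T1 and 26 and 38 UMIs in LPS nodes. In the second library Car4, Duox2 and Mrgprg were also higher in 4T1 than in naive fibroblasts, at 1.56, 1.97 and 2.06.

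Serpina3n, a secreted serine protease inhibitor, was higher in 4T1 fibroblasts of every range. It had 196 CPM in 4T1, 59.4 CPM in LPS, 169 CPM in 67NR and 52.7 CPM in naive fibroblasts, a ratio of 1.72 (1.48 to 1.97). The ratio was past 2-fold in each of the 3 ranges, with the largest at 1.85, and 87 of 114 fibroblasts in 4T1 and 107 of 227 in LPS nodes held a UMI (42.3% and 15.6% at 3000 UMIs per cell). The gene was higher in 4T1 endothelial cells as well, at 32.0 CPM in 4T1 and 7.78 CPM in LPS nodes (2.04, 1.22 to 2.97). Other genes of this rank were Chl1, a neural adhesion molecule (2.03), Ubash3b, a phosphatase that dampens receptor signalling (1.91), Cemip2, a hyaluronidase (1.74), Afap1l2, a signalling adaptor (1.74), Serpina10, a protease inhibitor (1.72), and Elmod3 (1.59). Cd3e, a chain of the T cell receptor complex, also ranked here, with 47.7 CPM in 4T1, 9.94 CPM in LPS, 42.4 CPM in 67NR and 19.2 CPM in naive fibroblasts (2.26, 1.70 to 2.85). The other T cell markers did not come with it: the 6 listed summed to 56.9 CPM in 4T1 and 17.3 CPM in LPS fibroblasts, with Cd3e making up most of both sums, and Trbc2 was at 0 in 4T1.

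At the other end, after Ccl5, stood genes with few UMIs in 4T1: Ddit4l, an inhibitor of mTOR signalling (3 and 55 UMIs in 4T1 and LPS fibroblasts), Krt19, a keratin (4 and 65 UMIs), and Agtr2, an angiotensin II receptor (4 and 52 UMIs). Their ratios were -3.14, -2.97 and -2.65, with intervals more than 2 log2 units wide. The epithelial list, which does not include Krt19, was at 0 in both fibroblast pools. The better counted genes at this end were Ptn, the growth factor pleiotrophin, with 67.8 CPM in 4T1, 236 CPM in LPS, 43.3 CPM in 67NR and 195 CPM in naive fibroblasts (-1.80, -2.08 to -1.53), and Vegfd, a lymphatic growth factor, with 35.3 CPM in 4T1, 115 CPM in LPS, 37.7 CPM in 67NR and 45.9 CPM in naive fibroblasts (-1.71, -2.11 to -1.33). For Ptn the naive pool was near the LPS pool, and for Vegfd near the tumour pools. Sfrp2, a Wnt modulator, had 49.4 CPM in 4T1 and 165 CPM in LPS fibroblasts (-1.74, -2.07 to -1.42), with 185 CPM in 67NR, so it did not follow tumour drainage as such. Aox3, Hnmt, Prg4, Slc25a23, Sept1, Hist1h2bc and Ttc21a completed the 15 lowest, between -2.34 and -1.68.

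Collagens and contractile genes leaned to the 4T1 side, and the other matrix lists were mixed. The background for these lists was 1.73% higher and 1.95% lower in 4T1 among the 6929 fibroblast genes with 50 UMIs. Of 14 measured collagens outside the gate, 11 lay above 0 with a median of 0.54, and Col15a1, a basement membrane collagen (1.21), was the 1 past 2-fold. Thbs1, a matricellular protein that activates TGF-beta, had 336 CPM in 4T1, 121 CPM in LPS, 405 CPM in 67NR and 160 CPM in naive fibroblasts (1.48, 1.30 to 1.65). Postn (periostin) had 683 CPM in 4T1, 317 CPM in LPS, 1608 CPM in 67NR and 217 CPM in naive fibroblasts (1.11, 0.99 to 1.22), and its ratio was 1.81 in the Pi16 and Dpp4 range and -0.61 in the Ccl19 and Ccl21a range. Of 22 matrix glycoproteins, 3 were past 2-fold higher in 4T1 (Thbs1, Postn and Tnc) and 1 lower (Ccn5, -1.56), around a median of 0.10, with 12 of 22 above 0. Of 20 remodelling genes, 11 lay below 0 with a median of -0.12, and 3 were past 2-fold higher, among them the stromelysin Mmp3 (1.27) and the aggrecanase Adamts4 (1.15). Of 6 contractile genes, 5 lay above 0 with a median of 0.77, and Acta2 and Tagln stood at 1.78 and 1.42, with Acta2 UMIs in 18 of 114 cells in 4T1 and 15 of 227 in LPS nodes. The pericyte and smooth muscle list, which holds Acta2, summed to 423 CPM in 4T1 and 282 CPM in LPS fibroblasts, and the part of such cells in this ratio was not tested. Proliferation genes were carried by very few cells: Mki67 (4.84) came from 6 cells in 4T1 and 2 in LPS nodes.

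The other fibroblast lists gave few genes past 2-fold, against the same background of 1.73% higher and 1.95% lower. Of 20 measured early targets of NF-kB, 2 were past 2-fold higher in 4T1 (Cxcl2 and Il6) and none lower, with 13 above 0 and a median of 0.33. Among BMP antagonists and Wnt genes, the BMP antagonist Grem1 (1.32, 0.91 to 1.72) was higher, and Sfrp2 and Chrdl1, another BMP antagonist (-1.06, -1.30 to -0.82), were lower in 4T1. Tgfbi, a matrix protein induced by TGF-beta, had 94.9 CPM in 4T1 and 32.2 CPM in LPS fibroblasts (1.56, 1.22 to 1.91), the 1 of 10 TGF-beta genes past 2-fold. Of 12 adventitial genes, 11 lay below 0 with a median of -0.32, and Dpp4, a peptidase (-1.04), was past 2-fold lower. The list median was -0.83 in the Ccl19 and Ccl21a range, -0.12 in the Pi16 and Dpp4 range and 0.14 in the rest. A smaller share of 4T1 than of LPS fibroblasts lay in the range that Dpp4 helps to define, with overlapping intervals. None of 11 glucocorticoid-responsive genes, 15 glycolysis genes or 16 immediate early genes was past 2-fold. The early genes, which tissue dissociation induces, leaned to 4T1 with 13 of 16 above 0 (median 0.24), as did 11 of 12 chaperone genes (median 0.34), and the part of handling in other values was not tested.

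The gate itself touched some of these values. Requiring Pecam1 at 0 left out 46 cells of 4T1 and 153 of LPS nodes that met the fibroblast minimum and had no Cdh5 or Ptprc UMI. Their median fibroblast marker sum was 234 UMIs in 4T1 and 303 UMIs in LPS nodes, beside 223.5 and 263 UMIs in gated fibroblasts. In these cells, which the main ratios did not use but which come from the same pools, H2-D1 stood at -1.64, B2m at -1.41, Saa3 at -5.43, Irf7 at -1.55, Cfb at -1.47, Car4 at 5.41, Mrgprg at 2.98, Serpina3n at 1.63 and Ptx3 at 1.65. Il6 was smaller there, at 0.62 (0.41 to 0.83). Ccl19 (-1.86), Acta2 (-3.67), Mmp3 (-0.44) and Col15a1 (-0.34) had the other sign in the left-out cells, as did Ccn5 (0.62, -1.28 to 2.30). Of the adventitial genes, Dpp4 (0.26, 0.01 to 0.50), Anxa3 (0.76) and Sema3c (0.53) also had the other sign there, while Ly6c1 (-0.03) kept it. With these cells added, 114 genes were past 2-fold higher in 4T1, 69 of them among the 108, and 142 were lower, 62 of them among the 123.

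**Figure D3:**
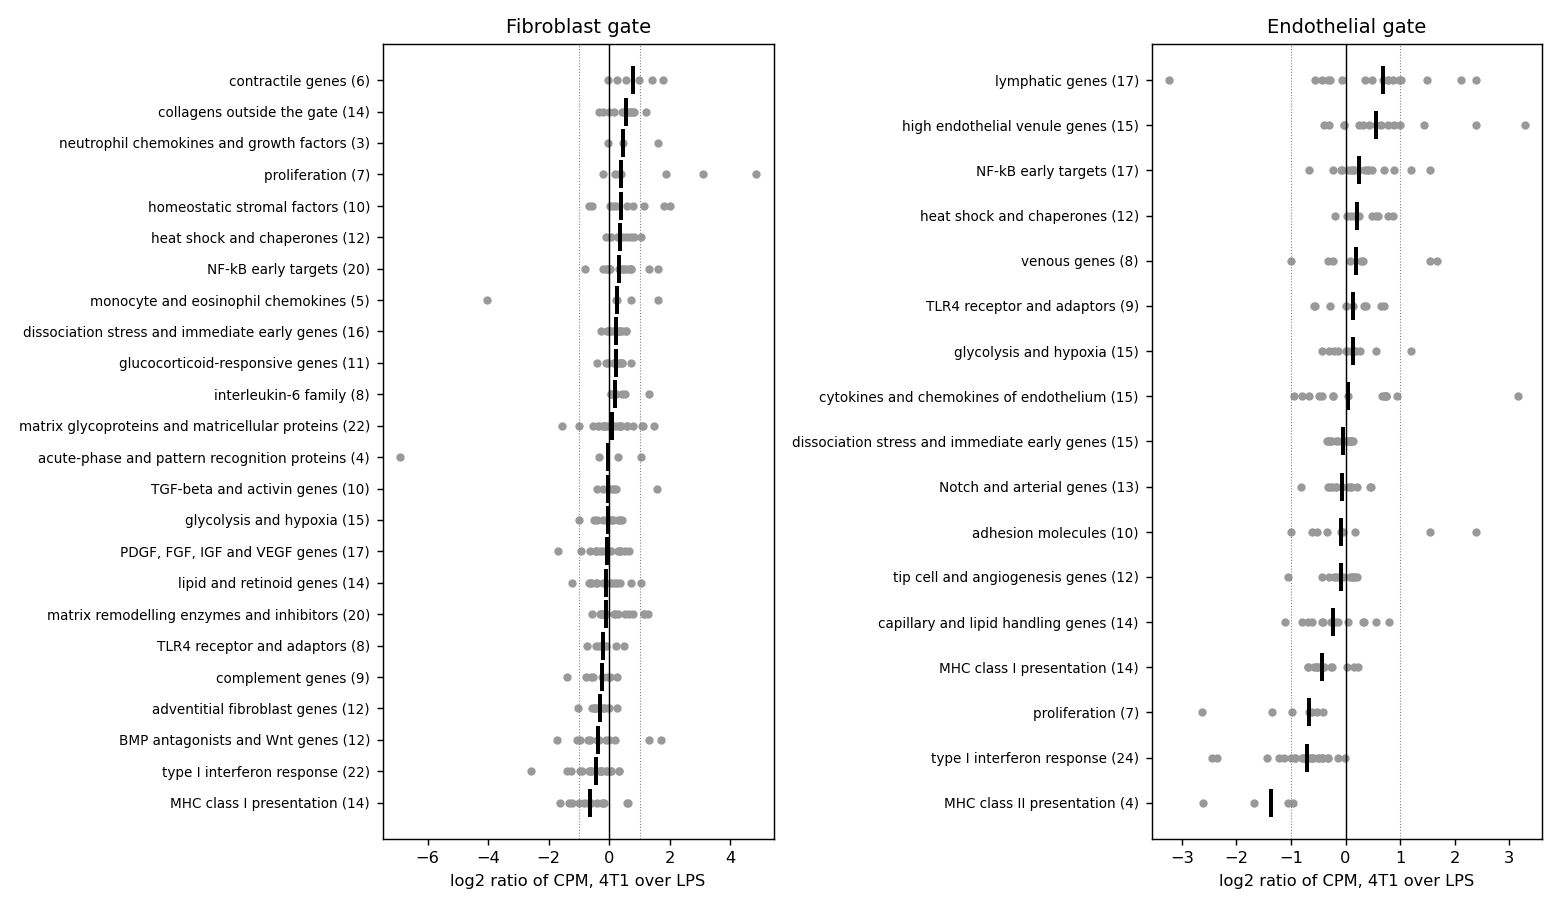
Log2 ratios, 4T1 over LPS, of the measured members of each gene list in the fibroblast and endothelial gates; points are genes, black bars list medians, numbers in brackets the members measured, and dotted lines 2-fold. In fibroblasts the class I list lies lowest (median -0.64), and in endothelial cells the class II list (-1.37) and the interferon list (-0.71).

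Most measured class II genes were past 2-fold lower in 4T1 endothelial cells. H2-Eb1, a class II beta chain, had 24.6 CPM in 4T1, 151 CPM in LPS, 186 CPM in 67NR and 39.3 CPM in naive endothelial cells, a 4T1 to LPS ratio of -2.61 (-3.02 to -2.23). H2-Aa, the alpha chain of the other class II molecule, had 24.6 CPM in 4T1, 78.9 CPM in LPS, 131 CPM in 67NR and 28.0 CPM in naive cells (-1.68, -2.12 to -1.26). Cd74, the invariant chain, had 254 CPM in 4T1, 529 CPM in LPS, 834 CPM in 67NR and 350 CPM in naive cells (-1.05, -1.20 to -0.91). In all 3 genes the 67NR pool was the highest and the 4T1 pool the lowest, so the genes did not set tumour drainage as a whole apart from LPS. Of 4 measured class II genes, 3 were past 2-fold lower in 4T1 endothelial cells, against 1.27% of the 6701 genes with 50 UMIs. H2-Ab1 stood at -0.96. The list median was -1.22 in the lymphatic range, -1.78 in the venule range and -1.43 in the other blood endothelial cells. In fibroblasts H2-Ab1 and Cd74, the 2 members measured, stood at 0.06 and -0.24 over the whole gate, neither past 2-fold. Within the fibroblast ranges their median lay below 0, at -0.35 in the Ccl19 and Ccl21a range, -1.42 in the Pi16 and Dpp4 range and -1.80 in the rest, the last 2 from few UMIs in 4T1. Outside the 5 highest cells Cd74 had 19.0 CPM in 4T1 and 62.5 CPM in LPS fibroblasts, and 1 cell held 63 of its 159 UMIs in 4T1. In the fibroblast-marker cells left out for a Pecam1 UMI, Cd74 stood at -2.76 (-3.58 to -2.04) and H2-Ab1 at -1.24 (-2.02 to -0.55). The difference between the gates was not tested. The dendritic cell list summed to 180 CPM in 4T1 and 174 CPM in LPS endothelial cells. Its members Itgax, Flt3 and Xcr1 were at 0 in both. The B cell list summed to 771 CPM in 4T1 and 850 CPM in LPS endothelial cells. Ebf1 made up 768 and 849 CPM of these sums, and Pax5 was at 0 in both. The monocyte and macrophage list held 65 UMIs in 4T1 and 45 UMIs in LPS endothelial cells. The part of antigen-presenting cells in the class II values was not tested.

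Single genes of the high endothelial venules and of the lymphatic sinus floor had the highest endothelial ratios. Glycam1 (chr15:103562759-103565081, minus strand), the secreted ligand of L-selectin made by these venules, had 21819 CPM in 4T1, 2239 CPM in LPS, 15375 CPM in 67NR and 17016 CPM in naive endothelial cells. The ratio was 3.28 (3.24 to 3.33), with the LPS pool far below the other 3. Few cells held most of the UMIs: the 5 highest held 77.8% in 4T1 and 80.6% in LPS nodes, and outside them the level was 4838 CPM in 4T1 and 435 CPM in LPS nodes. In the venule range the level was 64780 CPM in 4T1 and 12216 CPM in LPS nodes, and in the other blood endothelial cells 95.7 and 103 CPM. The remaining UMIs, a sizeable part in 4T1, lay in the lymphatic range, where Glycam1 was also higher in 4T1. Fibroblasts, which are not a known source of Glycam1, held 27.7 CPM in 4T1 and 24.6 CPM in LPS nodes. Cells in neither gate held 1144 CPM of Glycam1 in 4T1, while the whole venule marker list summed to 604 CPM in those cells of LPS nodes, led by Enpp2 at 320 CPM. The share of endothelial cells in the venule range and the Glycam1 level within it were thus both higher in 4T1, with 27 cells in 4T1 and 11 cells in LPS nodes behind them. The intervals of the shares overlapped (7.74 to 16.3% in 4T1 and 3.27 to 11.3% in LPS nodes). Of 15 measured venule genes, 3 were past 2-fold higher in 4T1 (Glycam1, Madcam1 and Spon1) with Chst2, a sulfotransferase that makes L-selectin ligands, at 1.00 and just short of 2-fold, and none was lower, against a background of 1.82% higher among the 6701 genes with 50 UMIs. The list median was 0.56, but 0.94 in the lymphatic, -0.03 in the venule and -0.09 in the other blood range.

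Ccl20, the Ccr6 ligand, and Madcam1, an adhesion molecule, mark the floor of the subcapsular sinus in mice, and nearly all of their UMIs lay in the lymphatic range. Ccl20 had 905 CPM in 4T1, 102 CPM in LPS, 847 CPM in 67NR and 241 CPM in naive endothelial cells, a ratio of 3.15 (2.94 to 3.38). It came from 18 of 234 cells in 4T1 and 8 of 170 in LPS nodes, with over 20% of the 4T1 UMIs in 1 cell. Madcam1 had 67.1 CPM in 4T1, 12.8 CPM in LPS, 105 CPM in 67NR and 75.7 CPM in naive endothelial cells (2.39, 1.76 to 3.08), all in the lymphatic range. Within the lymphatic range Ccl20 stood at 2.48 and Madcam1 at 1.71. Bmp2, a bone morphogenetic protein, had 293 CPM in 4T1, 67.8 CPM in LPS, 281 CPM in 67NR and 197 CPM in naive cells (2.11, 1.84 to 2.40), with 819 of 835 UMIs in 4T1 and 116 of 122 UMIs in LPS nodes in that range. Sema3a, a guidance molecule (2.14), Hs6st3, a heparan sulfate sulfotransferase (2.63), Vcam1, an integrin ligand (1.54), and Itga2b, an integrin chain (1.49), had the same placement. Vcam1 had 335 CPM in 4T1 and 115 CPM in LPS endothelial cells, and stood at 1.22 in the lymphatic range, -0.77 in the venule range and -0.15 in the other blood range. Pf4 and Itga2b are also platelet genes. Of the lymphatic list, 4 of 17 were past 2-fold higher in 4T1, against the same 1.82% (Madcam1, Bmp2, Itga2b and Pdpn, a mucin-like glycoprotein, at 1.01) and 1 lower, Marco, a scavenger receptor whose 83 LPS UMIs all came from 1 cell. The list median was 0.68 over the whole gate and 0.02 within the lymphatic range, which 4 of its genes define. The platelet list summed to 193 CPM in 4T1 and 58.9 CPM in LPS endothelial cells, with Ppbp and Gp1bb at 0 in both.

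The promoters of Madcam1 and Ccl20 are shown because they hold the kappa B letters bound by NF-kB, in capitals, searched as GGG and TTCC with any 3 bases between them and as the reverse complement, GGAA and CCC with any 3 bases between them, from RefSeq (GRCm38.p6) on the strand of each gene.
Madcam1, chr10:79664309-79664608, plus strand: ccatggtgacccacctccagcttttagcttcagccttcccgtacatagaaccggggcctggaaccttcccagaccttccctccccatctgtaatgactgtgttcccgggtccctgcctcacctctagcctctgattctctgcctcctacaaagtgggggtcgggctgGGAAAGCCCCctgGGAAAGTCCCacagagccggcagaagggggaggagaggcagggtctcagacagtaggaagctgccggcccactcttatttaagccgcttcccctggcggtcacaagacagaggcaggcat
Ccl20, chr1:83116516-83116815, plus strand: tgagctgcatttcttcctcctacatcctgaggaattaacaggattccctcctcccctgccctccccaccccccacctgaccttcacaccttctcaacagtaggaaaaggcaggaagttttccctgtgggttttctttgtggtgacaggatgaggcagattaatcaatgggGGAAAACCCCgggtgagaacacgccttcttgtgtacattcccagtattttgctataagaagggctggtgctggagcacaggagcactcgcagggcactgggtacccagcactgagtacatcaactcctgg
Madcam1 has 2 matches, the first 83 bases before the start, and Ccl20 has 1 match, 80 bases before it. A stricter form, with the last of the 3 free bases fixed as T, is contained in this one. The kappa B letters stood in 6.31% of all promoters in the table and in 405 of 5274 (7.68%) promoters of genes measured in endothelial cells. They stood in 2 of 13 promoters of the venule list and in 7 of 69 (10.1%) promoters of endothelial genes past 2-fold higher in 4T1. The NF-kB target list itself had 2 of 17 measured genes past 2-fold higher in 4T1 endothelial cells, Vcam1 and Tnfaip2 (1.20). The background was 1.82% higher among the 6701 genes with 50 UMIs, and the list median was 0.25.

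**Figure D4:**
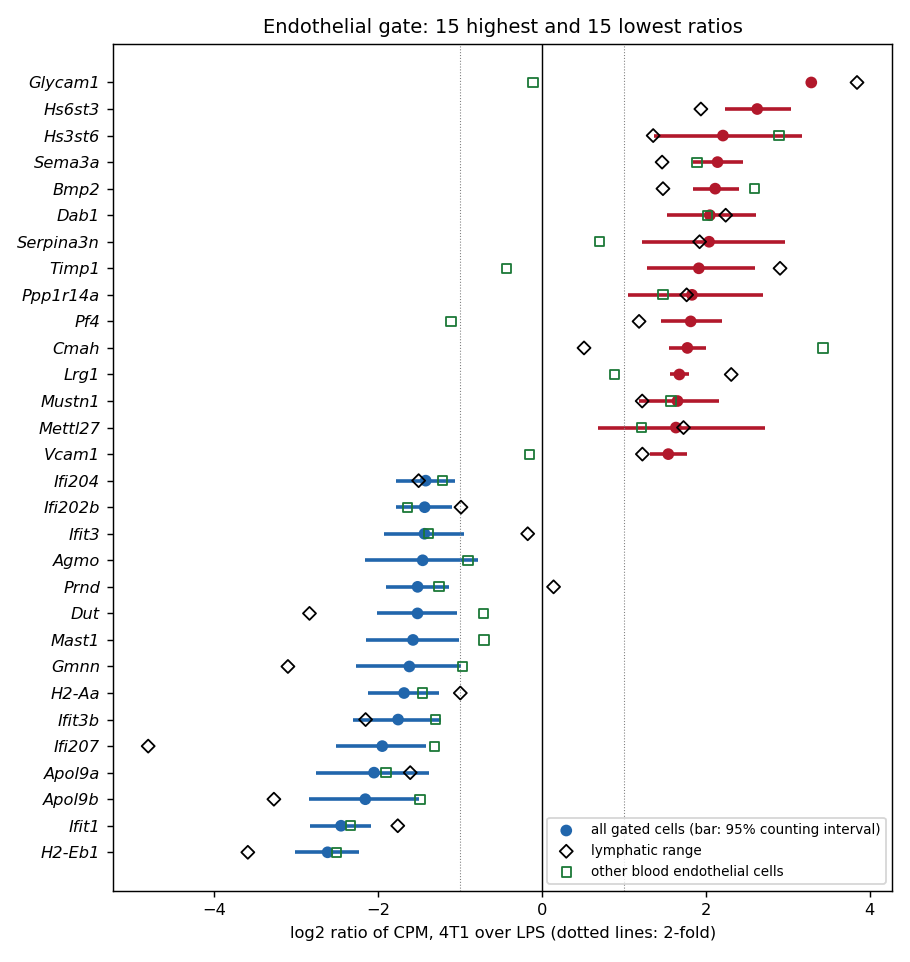
The 15 highest and 15 lowest ratios among endothelial genes past 2-fold, on the log2 scale, 4T1 over LPS; filled points are all gated cells with 95% counting intervals, diamonds the lymphatic range and squares the other blood endothelial cells. All 15 genes higher in 4T1 keep their sign in the lymphatic range, whereas Glycam1, Timp1, Pf4 and Vcam1 lie below 0 in the other blood cells. All 15 lower genes keep their sign in the other blood cells, and 12 of the 13 with enough UMIs do so in the lymphatic range, where Prnd turned.

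Lrg1, a secreted glycoprotein linked to angiogenesis, was higher in 4T1 and was found in many endothelial cells. It had 1351 CPM in 4T1, 423 CPM in LPS, 948 CPM in 67NR and 669 CPM in naive endothelial cells, a ratio of 1.68 (1.56 to 1.79). It was above 0 in every range, at 2.31 in the lymphatic, 1.11 in the venule and 0.88 in the other blood range, and 160 of 234 cells in 4T1 and 93 of 170 in LPS nodes held a UMI. At 3000 UMIs per cell, with 19 and 13 cells left out, the shares were 54.9% in 4T1 and 36.3% in LPS endothelial cells, and fibroblasts held a UMI in 8.77% and 5.29%. Cmah, which makes the sialic acid Neu5Gc, had 380 CPM in 4T1, 111 CPM in LPS, 307 CPM in 67NR and 164 CPM in naive cells (1.77, 1.55 to 2.00), and stood highest in the other blood cells, at 3.43. Timp1, an inhibitor of metalloproteinases, had 50.2 CPM in 4T1 and 13.3 CPM in LPS endothelial cells (1.91, 1.28 to 2.60), and in fibroblasts 62.9 CPM in 4T1 and 52.0 CPM in LPS nodes (0.27). Dab1 (2.05) and Mustn1 (1.65) were past 2-fold in each of the 3 ranges. Hs3st6, Ppp1r14a and Mettl27 completed the highest 15, between 1.63 and 2.21.

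The inflammatory adhesion molecules of blood vessels did not stand on the 4T1 side. Selp (P-selectin) had 68.5 CPM in 4T1, 136 CPM in LPS, 71.6 CPM in 67NR and 164 CPM in naive endothelial cells (-0.99, -1.27 to -0.71), close to the 2-fold line. Sele (E-selectin) had 49.5 CPM in 4T1 and 71.1 CPM in LPS cells (-0.52, -0.88 to -0.17), with 5 cells holding 89.1% of the LPS UMIs. Icam1, a leukocyte integrin ligand, had 408 CPM in 4T1 and 431 CPM in LPS cells (-0.08, -0.21 to 0.05). Ackr1, a chemokine decoy receptor of venules, stood at -0.24 (-0.55 to 0.08). Of 10 adhesion molecules, 2 were past 2-fold higher in 4T1 (Vcam1 and Madcam1) and none lower. Of the 6701 endothelial genes with 50 UMIs, 1.82% were higher and 1.27% lower.

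Of 7 measured proliferation genes in endothelial cells, 2 were past 2-fold lower in 4T1, against 1.27% of the 6701 genes with 50 UMIs. All 7 lay below 0 with a median of -0.67, and Top2a (-2.63, -3.23 to -2.07) and Stmn1 (-1.35, -1.66 to -1.04) were the 2. Top2a, a DNA topoisomerase of dividing cells, came from 9 of 234 cells in 4T1 and 7 of 170 in LPS nodes, so a few dividing cells carried it, and 5 cells held 96.1% of the LPS UMIs. Gmnn, a licensing factor of DNA replication, and Dut, an enzyme of nucleotide supply, were among the 15 lowest (-1.62 and -1.52). Of the capillary list 1 of 14 was past 2-fold, Rgcc, a cell cycle regulator (-1.11), and of the tip cell list 1 of 12, Esm1, an endothelial proteoglycan (-1.05). Prnd, a prion-like protein (-1.52), Mast1, a kinase (-1.57), and Agmo, an ether lipid enzyme (-1.46), completed the lowest 15.

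**Figure D5:**
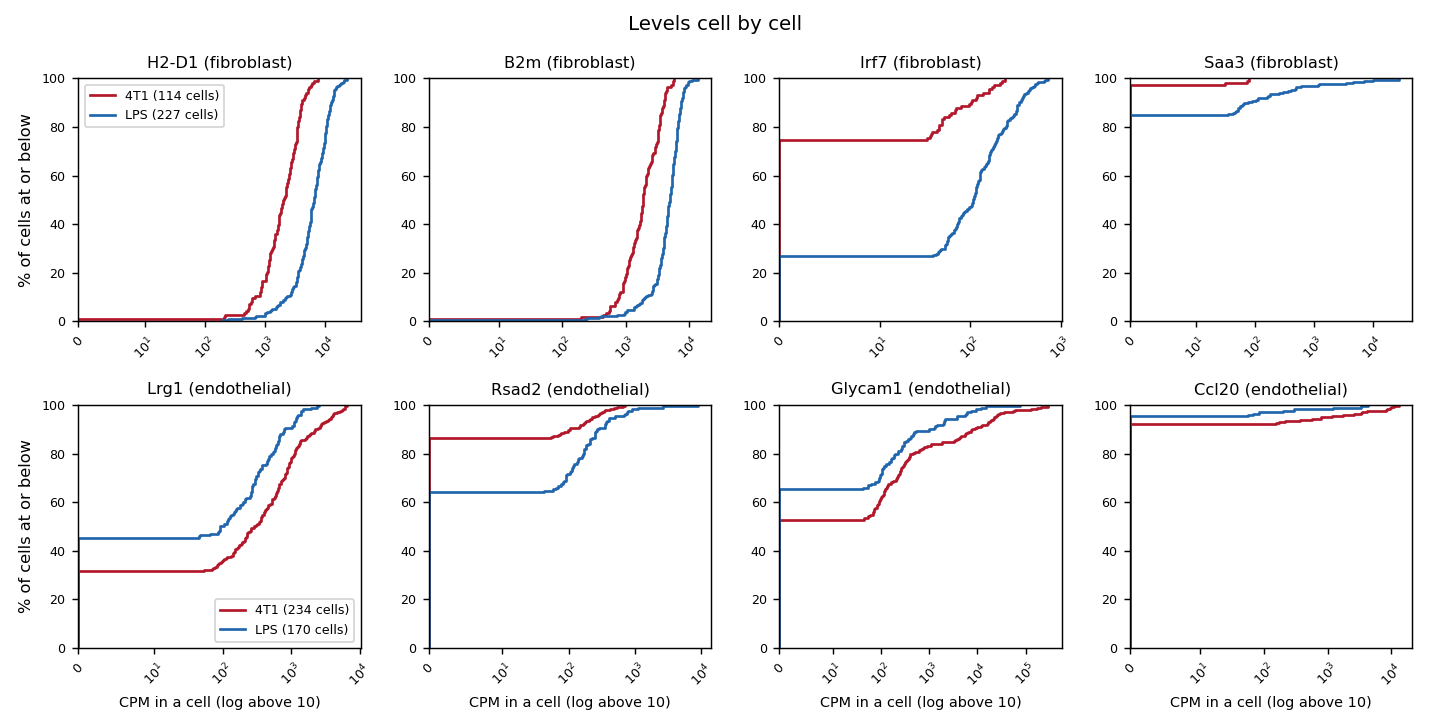
Cumulative shares of single cells at or below a CPM value for 4 fibroblast and 4 endothelial genes in 4T1 and LPS nodes; the horizontal axis is linear below 10 CPM and logarithmic above. The H2-D1 and B2m curves are displaced along their whole length (medians 2035 and 6510 CPM, 1901 and 4943 CPM in 4T1 and LPS nodes), whereas the Saa3 and Ccl20 curves part only among the top cells.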

How the data were processed

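Gene and hashtag UMI counts per barcode were taken as the authors deposited them, made with Cell Ranger 7.0 on the mm10 build per the submitters' processing notes. Which annotation was used, how cells were called and how intronic reads were treated is not given in the sources used here. The stromal library was made with a droplet 3' kit, per the labels' protocols, and held 3507 barcodes and 32285 genes.

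Hashtag calls, cell filters and gates were as the report gives them, and 187 of 2540 filtered cells had no call. The 3-fold hashtag rule removes droplets that hold cells of different pools, while doublets within a pool remain, and no doublet caller was run. UMIs were summed over the cells of a gate and pool, and ratios of CPM were computed with exact conditional binomial intervals, CPM with exact Poisson intervals and shares with exact Clopper-Pearson intervals at 95% (Python 3.11.15, numpy 2.4.6, scipy 1.17.1, pandas 2.3.3, matplotlib 3.10.9). These cover counting error only. With 1 pool per condition no test was made, and a gene is described as past 2-fold. Where a pool held no UMI, the ratio was taken against 3 UMIs. Genes of the gates were left out of calls. A gene in the lists needed 50 UMIs in the higher pool. edgeR 4.0.16 and DESeq2 1.42.0 (R 4.3.3) supplied alternative scaling factors only.

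Named genes were, per gate, the 15 highest and 15 lowest ratios past 2-fold in which no 1 cell held over 20% of the UMIs of the higher pool, up to 4 members of each list with the largest ratios, and a fixed set of chemokine, receptor and adhesion genes. Immunoglobulin and T cell receptor segments, haemoglobin, mitochondrial and unnamed genes were counted and not named. A few other genes are not reported here. Members, 26 fibroblast and 17 endothelial lists were chosen with earlier results of these data known. Promoters ran from 250 bases before to 50 bases after each start in a RefSeq table of GRCm38.p6 that covers 27025 genes, and 98 of the 123 fibroblast genes lower in 4T1 and 52 of the 62 endothelial ones had an entry.

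Alternatives were other cell filters, hashtag ratios, gates, minima, scalings, thinned cells, single ranges of cells and leaving out the highest cell. Pecam1 allowed in the fibroblast gate and an equal CPM minimum in both pools were added after the data were seen.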

Additional observations from a re-analysis of the deposited data

Results flagged for a closer look

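The 3 genes that follow were past 2-fold in opposite directions in the 2 gates, and the difference between the gates was not tested. Stmn1, a microtubule regulator of dividing cells, had 48.8 CPM in 4T1 and 13.3 CPM in LPS fibroblasts (1.87), against 49.1 CPM in 4T1 and 125 CPM in LPS endothelial cells (-1.35). Mxd1, a repressor of the Myc network, had 8.68 CPM in 4T1 and 19.6 CPM in LPS fibroblasts (-1.18), against 48.8 CPM in 4T1 and 17.2 CPM in LPS endothelial cells (1.50). Stc1, a secreted glycoprotein, had 14.1 CPM in 4T1 and 30.3 CPM in LPS fibroblasts (-1.11), against 136 CPM in 4T1 and 62.2 CPM in LPS endothelial cells (1.12). All 3 were low in fibroblasts, and Stmn1 rested there on 90 UMIs in 4T1 and 51 UMIs in LPS nodes.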

How the results depend on the processing

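No paired analysis was possible because each condition was 1 pool with no replicate number. Counts past 2-fold moved by over 1.5 times in 10 of 62 recomputed counts, but the genes behind a count could change where its size did not. With an equal mix of the ranges, 87 endothelial genes were higher in 4T1, 39 of them among the 88. There, 67 were lower, 38 of them among the 62. In fibroblasts 82 of the 108 higher and 99 of the 123 lower genes were kept. In the other blood endothelial cells alone 16 of the 88 higher genes were kept and 22 turned sign. With a minimum of 20 UMIs, 220 fibroblast genes were higher and 206 lower in 4T1, and 156 endothelial genes were lower. With cells thinned to 1000 UMIs, 6 and 18 fibroblast genes and 22 and 2 endothelial genes were higher and lower in 4T1, since far fewer genes reached the minimum. In the Ccl19 and Ccl21a range alone 53 fibroblast genes were lower, and with an equal CPM minimum 56 were lower. Without cells holding immune or other-gate UMIs 38 endothelial genes were lower, 25 of them among the 62. Of the 88 higher endothelial genes, 47 were kept. Of the values of named genes, 2145 stayed within their counting interval, 505 moved and 18 turned sign. In the Ccl19 and Ccl21a range alone these were Ccn5 (0.59), Daglb (-2.34), Fmo2 (0.043), Mrgprg (-4.11), Postn (-0.61), Prg4 (1.33), Stmn1 (-2.99) and Top2a (-1.73). In thinned cells they were Cyp7b1 (-1.01), Ddit4l (0.58), Krt19 (0.58) and Ttc21a (0.26), from very few UMIs, and without cells holding immune UMIs Cxcl2 (-0.091). In the other blood endothelial cells alone they were Adm (-0.96), Glycam1 (-0.11), Pf4 (-1.11), Timp1 (-0.43) and Vcam1 (-0.15), and the medians of the venule list (-0.094) and the lymphatic list (-0.25). The cause was not tested. A limit on the second hashtag gave no value, because nearly all gated cells held 10 or more counts of another hashtag.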
